A study of Mus musculus with 8 samples.

Results

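The genes Hlf, Mecom, Meis1, Mycn, Prdm16, Sox4, Erg and Mllt3 encode transcription factors and chromatin regulators associated with haematopoietic stem cells. They were chosen by name, and all 8 were found among 19938 measured genes. They were covered by 9 of 35556 probe sets, with 2 for Mecom and 1 for each of the others, and the brightest probe set of a gene was used. The study measured total RNA of flow-sorted bone marrow cells of C57BL/6J mice with 8 Affymetrix arrays, each hybridised with biotin-labelled RNA of its own preparation, for which 4 or 6 mice were pooled. KLS cells (lineage-negative cells with Sca-1 and c-Kit on their surface, among which the stem cells are found) and MEP cells (progenitors of the megakaryocyte and red cell lineages) were sorted from wild-type mice (WT) and from mice with the genotype ∆Hmga2 (TG), with 2 arrays per group. The series is named for overexpression of HMGA2. The sources used here do not give the promoter of the ∆Hmga2 allele, the tissues that express it or the age of the mice. P-values measure the spread between these pooled preparations.

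A haematopoietic stem cell renews itself and gives rise to progenitors of every blood lineage, and transcription factors that hold this state are shut down as cells commit to a lineage. Hlf belongs to the PAR subfamily of basic leucine zipper factors and is widely used as a marker of immature stem and progenitor cells. Mecom (also known as Evi1) and Prdm16 are related zinc finger proteins of the PRDM family needed to maintain stem cells. Meis1 is a TALE homeodomain protein that works with Pbx and Hox proteins. Erg is an ETS family factor required for stem cell maintenance, Mycn is a Myc family factor that acts together with c-Myc in stem cells, and Sox4 is an HMG box factor also needed in early B-cell development. Mllt3 (AF9) is a chromatin reader of elongation complexes that recurs as a fusion partner of MLL in leukaemia, and it has roles in stem cell maintenance and in erythroid and megakaryocytic fate.

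Promoters of the 4 genes that differed between the cell types are shown to let their sequences be set side by side. All 8 genes matched the RefSeq promoter table of build GRCm38.p6, with 12 annotated starts. The 250 bases before a start are printed 5′ to 3′ on the strand of the gene, and capitals mark matches on either strand to 7 motifs. These stand for some of the factors' own families, for GATA factors and for general promoters, and none stands for the PRDM family. The ETS core was searched as GGAAG, the GATA motif as AGATAA, the Meis motif as TGACAG, the Myc E-box as CACGTG, the PAR leucine zipper motif as TTACGTAA, the SOX motif as ACAAAG and the CCAAT box by its own letters. No matches overlapped.
Hlf, chr11:90390918-90391167, minus strand: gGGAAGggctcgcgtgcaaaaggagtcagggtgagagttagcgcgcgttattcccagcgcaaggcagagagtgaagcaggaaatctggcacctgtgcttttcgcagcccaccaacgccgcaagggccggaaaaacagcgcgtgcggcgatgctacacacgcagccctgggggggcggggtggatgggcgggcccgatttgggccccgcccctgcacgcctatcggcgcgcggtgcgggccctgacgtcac
Meis1, chr11:19018970-19019219, minus strand: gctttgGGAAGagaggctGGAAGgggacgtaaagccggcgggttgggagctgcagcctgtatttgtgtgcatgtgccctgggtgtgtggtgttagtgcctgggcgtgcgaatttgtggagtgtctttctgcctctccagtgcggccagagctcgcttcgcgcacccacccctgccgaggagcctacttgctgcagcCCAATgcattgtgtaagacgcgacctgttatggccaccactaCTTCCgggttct
Erg, most upstream start, chr16:95586594-95586843, minus strand: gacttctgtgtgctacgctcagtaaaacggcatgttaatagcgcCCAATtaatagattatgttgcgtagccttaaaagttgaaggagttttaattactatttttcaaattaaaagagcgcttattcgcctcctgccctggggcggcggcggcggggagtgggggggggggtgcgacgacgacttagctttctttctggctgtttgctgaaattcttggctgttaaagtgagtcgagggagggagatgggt
Mecom, upstream start, chr3:30509760-30510009, minus strand: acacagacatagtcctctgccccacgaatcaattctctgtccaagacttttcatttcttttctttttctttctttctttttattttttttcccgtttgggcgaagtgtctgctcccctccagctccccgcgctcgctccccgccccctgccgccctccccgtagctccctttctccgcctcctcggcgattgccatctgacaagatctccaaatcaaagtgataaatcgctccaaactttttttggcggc
Mecom, downstream start, chr3:30013205-30013454, minus strand: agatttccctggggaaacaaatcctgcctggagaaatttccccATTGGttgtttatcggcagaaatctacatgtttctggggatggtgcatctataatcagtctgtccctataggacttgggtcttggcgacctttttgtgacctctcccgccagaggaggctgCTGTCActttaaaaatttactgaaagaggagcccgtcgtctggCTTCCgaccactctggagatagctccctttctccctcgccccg
Among 32851 windows of this length, 64.1% held the ETS core, 33.8% the CCAAT box, 16.5% the SOX, 15.9% the Meis and 9.99% the GATA motif, 6.02% the E-box and 0.113% the PAR leucine zipper motif. The Hlf window held 1 match, to the ETS core, and the Meis1 window held 3 to the ETS core and 1 to the CCAAT box. The window at the most upstream of 3 Erg starts held 1 match to the CCAAT box, the window at the next start 1 to the ETS core, and that at the most downstream start 7: 3 to the CCAAT box, 2 to the Meis motif and 1 each to the ETS core and the GATA motif. The upstream Mecom window held none of the 7 motifs, and the downstream window held the ETS core, the Meis motif and the CCAAT box, with 1 match each. These are letter matches, and nothing was measured about binding.

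Array values are log2 signals, on which a step of 1 is a factor of 2. Each gene was compared with itself across arrays, since levels of different probe sets cannot be ranked against each other. Replicates correlated across genes at 0.981 in WT MEP and 0.983 to 0.988 in the other groups. WT MEP cells had the most uneven replicates, with 2.11% of genes more than 2 fold apart, against 0.557% to 1.12% in the other groups. The sorts were checked against marker lists. Of 9 stem and progenitor surface markers 4 passed the threshold as higher in KLS cells and 0 as lower. Cd34 had a log2 difference of 2.97 and Flt3 of 2.55, while Kit was between 9.48 and 10.34 on every array. Slamf1 overlapped between the cell types and was highest on WT MEP 1 (6.448), above WT KLS 1 (6.365), the highest KLS array. The list mixes stem cell and progenitor markers, so its calls do not tell stem cells from progenitors. Over all genes 1.2% passed as higher in KLS cells and 0.396% as lower. Of 14 MEP and erythroid markers 2 passed as higher in MEP cells, Rhd (-0.77) and Tfrc (-0.56). Of the 14, 10 lay below 0, with a list median of -0.21 beside 0.01 over all genes. Rhd passed in 3 and Tfrc in 1 of the 8 fits that left out an array, and median centring ended the call of Tfrc (adjusted p = 0.0643). Gata1 (-0.50, adjusted p = 0.0570) did not pass, and neither did the platelet factor Pf4, which had the higher mean in KLS cells (1.57, 0.0686). Slamf1, Kit, Gata1 and Pf4 were chosen after their values were seen. The gene of Sca-1, Ly6a, was not analysed here. Of 16 granulocyte and monocyte markers 8 were higher in KLS cells, led by Ctsg (3.56), Ms4a3 (3.35) and Mpo (3.28). Of 15 lymphoid markers 2 were, Nkg7 (2.14) and Ccr9 (0.66). Median centring ended the call of Ccr9 (limma adjusted p = 0.0602), and neither Nkg7 nor Ccr9 passed in every fit that left out an array. In bulk samples, fewer cells of a type and less RNA per cell cannot be told apart.

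In the comparison of KLS with MEP cells, 4 of the 8 genes were higher in KLS cells: Hlf by 4.73 fold, Meis1 by 4.15 fold, Erg by 2.47 fold and Mecom by 1.82 fold. None of the 8 passed as lower in KLS cells, and Mycn, Sox4, Prdm16 and Mllt3 did not pass. Over all genes tested, 1.6% passed, 1.2% as higher in KLS cells and 0.396% as lower (limma, adjusted p under 0.05). The arrays of the same 4 genes did not overlap between the cell types, which held for 4.41% of all genes in this direction. The median log2 difference over the 8 genes was 0.70, and over all genes 0.01. The members were chosen with earlier results of these data in view, so the counts describe the genes named here.

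**Figure D1:**
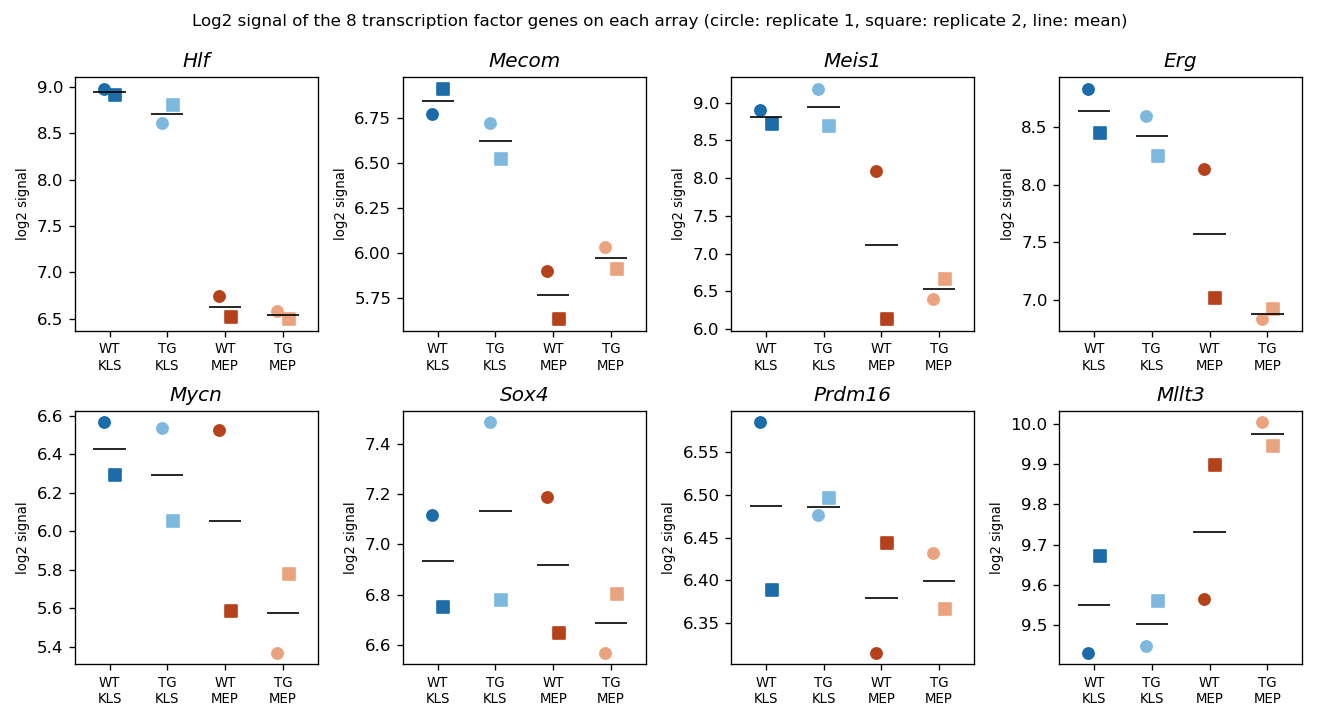
Log2 signal of each gene (y axis, with a range of its own in each panel) on the 8 arrays, by group (x axis). Circles are replicate 1, squares replicate 2 and lines the group mean of 2 arrays. Hlf lies between 8.62 and 8.98 in KLS and between 6.50 and 6.74 in MEP cells, while Meis1 on WT MEP 1 lies at 8.10, apart from the other MEP arrays.

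Hlf separated the cell types most evenly. Its log2 signal was 8.98 and 8.91 on the WT KLS arrays and 8.62 and 8.80 on the TG KLS arrays, against 6.74 and 6.52 on the WT MEP and 6.59 and 6.50 on the TG MEP arrays. The lowest KLS array lay 1.87 above the highest MEP array. The difference was 2.24 ± 0.10 (limma SE, 95% interval 2.01 to 2.48, adjusted p = 0.000123). By p it ranked 1 of 19938 genes, and by size 23. It was the 1 gene of the table that passed in WT cells alone (2.32 ± 0.15, adjusted p = 0.00185), where 0.00502% of genes passed. In TG cells alone Hlf also passed (2.17 ± 0.15, adjusted p = 0.00323), where 0.135% of genes did, but not without TG MEP 1 (adjusted p = 0.0759) or TG MEP 2 (0.103). Over both genotypes it passed with any single array left out, with an adjusted p of at most 0.00279.

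Mecom was higher in KLS cells by a smaller amount. The brighter probe set (10497608) read 6.77 and 6.91 in WT KLS, 6.72 and 6.52 in TG KLS, 5.90 and 5.63 in WT MEP and 6.04 and 5.91 in TG MEP cells. KLS and MEP arrays lay 0.49 apart at the nearest, and the difference was 0.86 ± 0.11 (SE, limma adjusted p = 0.0136). The dimmer probe set (10497590), whose annotation shares 1 transcript record with the brighter one, read 5.80 and 5.54 in WT KLS, 6.04 and 5.45 in TG KLS, 4.87 and 4.85 in WT MEP and 4.58 and 4.87 in TG MEP cells. Its difference was 0.91 ± 0.15 (adjusted p = 0.0461 with 21789 probe sets tested singly, an alternative chosen after seeing the data). Mecom did not pass without TG KLS 1 (adjusted p = 0.0711), TG MEP 1 (0.0629) or TG MEP 2 (0.0745).

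Meis1 and Erg had large differences and an uneven MEP group. Meis1 read 8.90 and 8.72 in WT KLS, 9.19 and 8.69 in TG KLS and 6.403 and 6.67 in TG MEP cells, but 8.10 and 6.13 on the WT MEP arrays. Erg read 8.83 and 8.45 in WT KLS, 8.59 and 8.25 in TG KLS and 6.83 and 6.92 in TG MEP cells, and 8.14 and 7.01 on the WT MEP arrays. For both genes WT MEP 1 was the highest MEP array and lay below every KLS array, by 0.60 for Meis1 and 0.11 for Erg. The difference between the cell types was 2.05 ± 0.36 for Meis1 (SE, limma adjusted p = 0.0362) and 1.31 ± 0.23 for Erg (adjusted p = 0.0364). Without WT MEP 1 the differences were 2.54 and 1.59, and without WT MEP 2 they were 1.56 and 1.02. Either fit leaves 1 WT MEP array, so the gap between the WT MEP replicates drops out of the spread. The p-values of those fits are therefore not read. Neither gene passed without any single one of the other 6 arrays (adjusted p from 0.0561 to 0.143 for Meis1 and from 0.0557 to 0.143 for Erg). Meis1 did not pass with each array centred on its median (adjusted p = 0.0654), and Erg passed neither so (0.0806) nor as deposited (0.0534).

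Mycn and Sox4 did not pass between the cell types. Mycn read 6.57 and 6.29 in WT KLS, 6.54 and 6.05 in TG KLS, 6.52 and 5.58 in WT MEP and 5.37 and 5.78 in TG MEP cells. Its WT MEP 1 value lay among the KLS arrays, and the other MEP arrays lay below all of them. The difference was 0.55 ± 0.22 (limma adjusted p = 0.282, 95% interval 0.06 to 1.04). Sox4 read 7.12 and 6.75 in WT KLS, 7.48 and 6.78 in TG KLS, 7.19 and 6.65 in WT MEP and 6.57 and 6.80 in TG MEP cells, so that the cell types overlapped. Its difference was 0.23 ± 0.19 (adjusted p = 0.708, 95% interval -0.20 to 0.66).

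Prdm16 hardly varied over the arrays, from 6.32 on WT MEP 1 to 6.58 on WT KLS 1. Its difference was 0.10 ± 0.10 (limma adjusted p = 0.787), with a 95% interval from -0.13 to 0.32. That interval leaves out a change of 2 fold in the signal. How far the Prdm16 signal lies above background was not tested, so the interval does not bound a change of the transcript. Mllt3 was the 1 gene of the 8 with a higher mean in MEP cells. It read 9.43 and 9.67 in WT KLS, 9.45 and 9.56 in TG KLS, 9.57 and 9.90 in WT MEP and 10.003 and 9.94 in TG MEP cells, and WT MEP 1 was the lowest MEP array, within the KLS range. The difference was -0.32 ± 0.11 (adjusted p = 0.224, 95% interval -0.59 to -0.06).

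**Figure D2:**
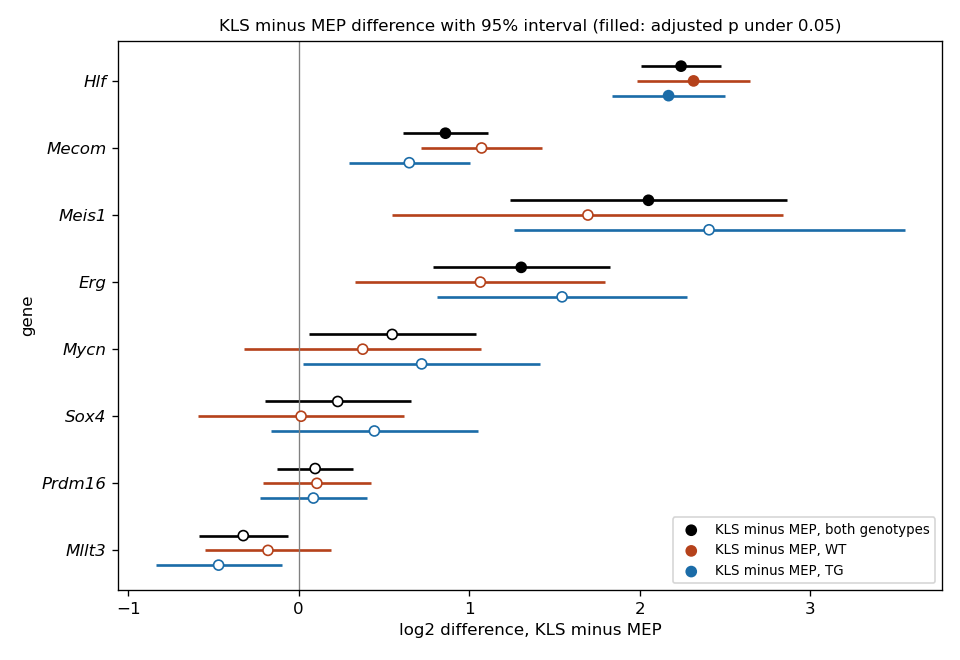
Log2 difference of KLS minus MEP cells (x axis) for each gene (y axis), over both genotypes and within WT and TG, with limma's 95% intervals. Filled points passed the adjusted p of 0.05: 4 genes over both genotypes, and Hlf alone within WT (2.32) and within TG (2.17).

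Within a single genotype, 1 of the 8 genes passed in WT and 1 in TG cells, Hlf in each case. Meis1 differed by 1.696 ± 0.51 in WT and 2.41 ± 0.51 in TG cells (SE), and Erg by 1.07 ± 0.32 and 1.54 ± 0.32. Without WT MEP 1 the WT differences were 2.68 for Meis1 and 1.63 for Erg. With WT MEP 1 as the single WT MEP array, the WT differences were 0.71 and 0.50. Mecom differed by 1.07 ± 0.16 in WT and 0.65 ± 0.16 in TG cells. With the replicate number as a block, 2 genes passed in TG cells, Hlf and Erg (adjusted p = 0.0491), in place of 1.

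The WT MEP replicates lay far apart for some of the 8 genes and close together for others. Replicate 1 exceeded replicate 2 by 1.97 for Meis1, and 0.266% of genes had a larger gap in that group. The gap was 1.13 for Erg (1.62% of genes larger), 0.94 for Mycn (2.36%), 0.54 for Sox4 (8.32%) and -0.33 for Mllt3 (24.8%). For Hlf it was 0.23 (43% larger) and for Mecom 0.27 (34.7% larger), close to the median gap of 0.19 over all genes. Measured from the TG MEP mean to the KLS mean on the log2 scale, WT MEP 1 stood 66.8% of the way for Meis1, 76.4% for Erg and 91.6% for Mllt3, and past the KLS mean for Mycn (120.5%) and Sox4 (145.2%). It stood at 8.86% for Hlf and -9.37% for Mecom. WT MEP 2 stood at -17.3% for Meis1, 8.15% for Erg, 17.1% for Mllt3, 1.31% for Mycn, -10.6% for Sox4, -1.0% for Hlf and -44.7% for Mecom. On WT MEP 1 the values of Meis1, Erg, Mycn and Mllt3 thus lay toward or past the KLS mean, while Hlf and Mecom lay near the TG MEP mean. For Prdm16 the KLS and TG MEP means were too close for such a position to be read. The same holds for Sox4, whose means of 7.03 and 6.69 lay closer together than its TG KLS replicates, which were 0.71 apart.

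**Figure D3:**
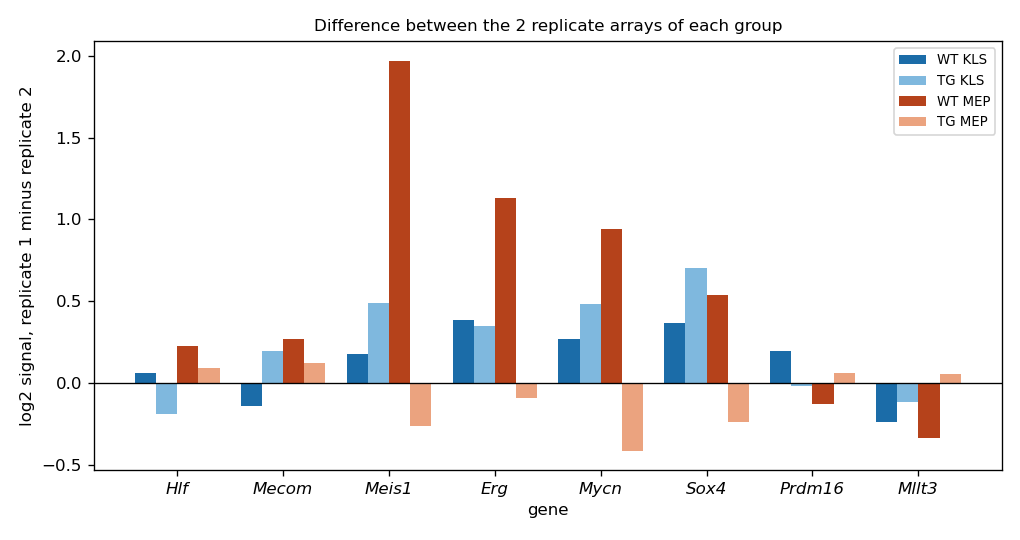
Log2 signal of replicate 1 minus replicate 2 (y axis) for each gene (x axis) in the 4 groups, 1 bar per group. The WT MEP bars reach 1.97 for Meis1 and 1.13 for Erg, while the bars of the other 3 groups lie between -0.41 and 0.71.

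Markers of other cells moved with that array. Of the 15 lymphoid markers 12 were highest on WT MEP 1 among the 4 MEP arrays. So were 16 of 16 granulocyte and monocyte markers and 7 of 9 stem and progenitor surface markers. The share was 3 of 10 for stromal and endothelial markers and 25.8% for all genes. The lymphoid list averaged 7.73 on WT MEP 1, 6.18 to 6.37 on the remaining MEP arrays and 6.86 to 7.31 in KLS cells. The granulocyte and monocyte list averaged 8.83, against 7.59 to 8.21 and 9.41 to 9.89. The stem and progenitor surface list averaged 7.22, against 6.49 to 6.53 and 7.62 to 8.03. Il7r, the interleukin 7 receptor of early lymphoid cells, was chosen after its values were seen. It read 9.96 on WT MEP 1, 6.71 to 6.82 on the remaining MEP arrays and 7.60 to 8.02 in KLS cells. The part of these cells in the Meis1, Erg, Mycn, Sox4 and Mllt3 values was not tested. The MEP and erythroid list averaged 8.90 on that array, 8.58 to 8.87 on the other MEP arrays and 8.59 to 8.79 in KLS cells. By this average the cell types overlapped.

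The genotype comparison asked whether ∆Hmga2 altered these genes within each sorted fraction. In KLS cells 0 of the 8 genes passed, and 0% of all genes (limma, with 0 of the 8 and 500 of all genes, 2.51%, at an unadjusted p under 0.05). The TG arrays lay below the WT arrays for Hlf and Mecom, 2 of 8 genes, as for 17.2% of all genes. Hlf was at 8.71 ± 0.13 in TG and 8.95 ± 0.05 in WT KLS cells (SD, n = 2 each), a difference of -0.24 ± 0.15 (SE, 95% interval -0.57 to 0.10). Mecom was at 6.62 ± 0.14 and 6.84 ± 0.10, a difference of -0.22 ± 0.16 (-0.57 to 0.13), but its other probe set differed by 0.07 ± 0.21. The other 6 genes overlapped between the genotypes. Their differences were -0.22 ± 0.32 for Erg, -0.14 ± 0.31 for Mycn, -0.05 ± 0.16 for Mllt3, -0.00075 ± 0.14 for Prdm16, 0.13 ± 0.51 for Meis1 and 0.20 ± 0.27 for Sox4. The interval for Meis1, from -1.02 to 1.28, holds changes of 2 fold in either direction. Its width comes from a spread shared by all groups, which takes in the WT MEP replicate gap of 1.97. The Meis1 replicates lay 0.49 apart in TG KLS and 0.18 in WT KLS cells. The intervals for Hlf, Mecom, Prdm16 and Mllt3 lie within 0.58 of 0. The sign was turned for Meis1, Sox4, Mllt3 and Prdm16 without TG KLS 1, for Mycn without TG KLS 2 or WT KLS 1, for Prdm16 without WT KLS 1 and for Mllt3 without WT KLS 2. For Mllt3 it was also turned as deposited (0.04) and with median centring (0.07).

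In MEP cells 0 of the 8 genes passed, again with 0% of all genes (limma, with 0 of the 8 and 739 of all genes, 3.71%, at an unadjusted p under 0.05). Erg stood at 6.87 ± 0.07 in the TG and 7.57 ± 0.80 in the WT arrays (SD, n = 2 each), a difference of -0.70 ± 0.32 (SE, 95% interval -1.43 to 0.03), and its TG arrays lay below the WT arrays, as for 17.2% of all genes. Leaving out WT MEP 1 gave -0.13, and leaving out WT MEP 2 gave -1.26. Meis1 differed by -0.58 ± 0.51, and by 0.41 without WT MEP 1. Without WT MEP 2, when WT MEP 1 stood alone for WT, the Meis1 difference was -1.56. Mycn was at -0.48 ± 0.31, with -0.01 without WT MEP 1, and Sox4 at -0.23 ± 0.27, with 0.04 without it.

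Mecom and Mllt3 were higher on both TG than on both WT MEP arrays, as were 13% of all genes. The differences were 0.21 ± 0.16 for Mecom (95% interval -0.15 to 0.56) and 0.24 ± 0.16 for Mllt3 (-0.13 to 0.61), and did not pass. The other Mecom probe set differed by -0.14 ± 0.21. Hlf (-0.09 ± 0.15) and Prdm16 (0.02 ± 0.14) overlapped between the genotypes, with intervals of -0.42 to 0.24 and -0.30 to 0.34. Both signs were turned without WT MEP 1, and that of Prdm16 also without TG MEP 1.

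**Figure D4:**
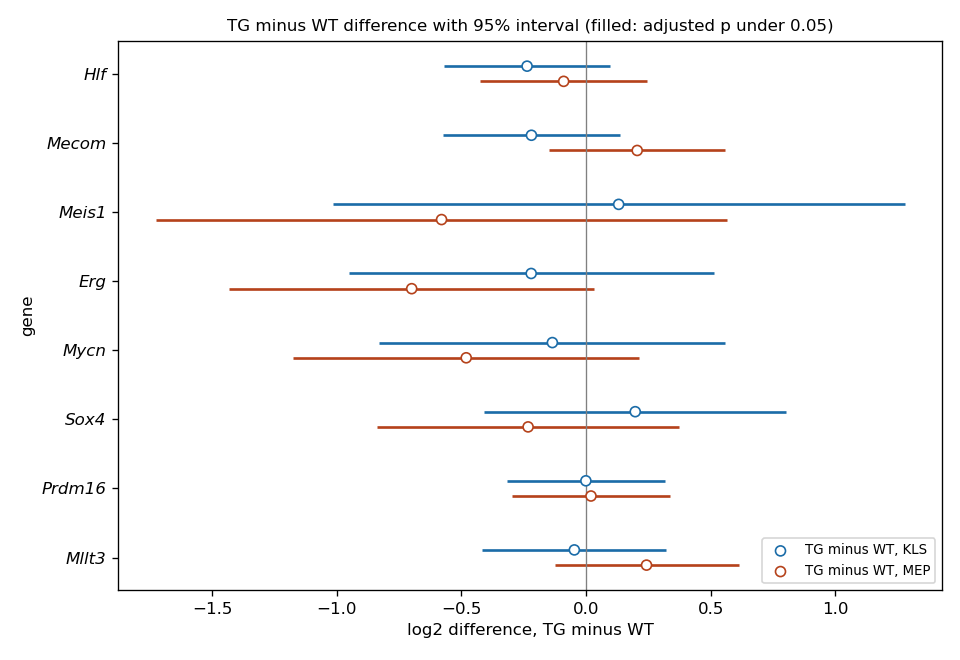
Log2 difference of TG minus WT (x axis) for each gene (y axis) in KLS and in MEP cells, with limma's 95% intervals. None of the 16 points is filled, since none passed the adjusted p of 0.05, and every interval includes 0; the Erg interval in MEP cells runs from -1.43 to 0.03.

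Whether the genotype difference itself differed between the cell types was tested as an interaction (KLS less MEP). It passed for 0 of the 8 genes and 0% of all genes (limma, with 0 of the 8 and 453 of all genes, 2.27%, at an unadjusted p under 0.05). Mecom, which was lower in TG KLS and higher in TG MEP cells, had the smallest p of the 8 genes, with -0.42 ± 0.22 (SE, 95% interval -0.92 to 0.08, adjusted p of 1.00). Its other probe set gave 0.21 ± 0.30, of the opposite sign.

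Relatives and partners of the 8 genes were followed, list by list, between KLS and MEP cells, beside a median of 0.01 over all genes. Over all genes 1.2% passed as higher in KLS cells and 0.396% as lower. Of 13 measured ETS relatives of Erg, 2 were higher in KLS cells and 0 lower, with a list median of 0.24. They were Spi1 (PU.1), the master factor of myeloid and B-cell fate, at 1.22 ± 0.20 (SE, limma adjusted p = 0.0343), and Etv6, an ETS repressor needed by adult stem cells, at 1.24 ± 0.24 (0.0458). All 13 were highest on WT MEP 1 among the MEP arrays. The list averaged 8.21 there, 7.37 on WT MEP 2 and 7.20 and 7.41 on the TG MEP arrays, so WT MEP 2 lay between the TG arrays. The genotype difference in MEP cells, which takes in WT MEP 1, was below 0 for all 13, with 0 past the threshold and a median of -0.41. In the same comparison 16 of 16 granulocyte and monocyte markers (median -0.77), 13 of 15 lymphoid markers (median -0.85) and 52% of all genes lay below 0, and their part in the ETS values was not tested. Fli1, the closest relative of Erg, was chosen after its values were seen. It read 9.33 and 8.48 in WT KLS, 9.27 and 8.53 in TG KLS, 8.76 and 6.92 in WT MEP and 6.73 and 6.97 in TG MEP cells, and its difference between the cell types did not pass (1.56 ± 0.38, adjusted p = 0.0832).

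Of 3 basic leucine zipper relatives of Hlf, 1 was higher in KLS cells, the repressor Nfil3 (0.95 ± 0.19, limma adjusted p = 0.0492), which is not of the PAR subfamily. Dbp (0.15 ± 0.11) and Tef (-0.04 ± 0.13), the nearest relatives of Hlf and of its PAR subfamily, were chosen after their values were seen and did not pass. Of 24 other stem cell regulators 1 was higher and 0 lower, beside 1.2% and 0.396% of all genes, with a list median of 0.14. It was Ikzf2 (Helios), a zinc finger factor of the Ikaros family, at 1.02 ± 0.20 (adjusted p = 0.0487). Nfil3, Etv6 and Ikzf2 did not pass as deposited or with median centring (adjusted p from 0.0684 to 0.118). Spi1 passed under both scalings and did not pass without TG KLS 1, WT KLS 1, TG MEP 1, TG MEP 2 or WT MEP 2 (from 0.0697 to 0.138). Nfil3 passed without 1 of the 8 arrays, and Etv6 and Ikzf2 without 2.

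In the other lists 0 genes passed. Among 12 TALE homeobox relatives and partners of Meis1 the smallest p was that of Hoxa9, a Hox partner of Meis1 in leukaemia, with 7.25 to 7.46 on the KLS and 6.81 to 6.91 on the MEP arrays and a difference of 0.48 ± 0.10 (limma adjusted p = 0.0501). It passed with the dimmest 30% of genes left out (0.0423), with the mean over probe sets (0.0499) and with the replicate block (0.0497). Hoxa9 did not pass as deposited (0.0651), with median centring (0.118) or with an intensity trend (0.0593). With an array left out its difference ran from 0.44 to 0.53. Among 9 Sox relatives of Sox4 it was Sox6, which acts in red cell maturation, at -0.70 ± 0.16 (0.0674). Among 16 MLL and elongation partners of Mllt3 it was Ell2, an elongation factor, at -0.56 ± 0.12 (0.0537), and like Mllt3 it had the higher mean in MEP cells. Ell2 passed without the dimmest genes (0.0452), with an intensity trend (0.0459) and with the replicate block (0.0299). It did not pass as deposited (0.0534), with median centring (0.0685) or with the mean over probe sets (0.0532). With an array left out the Ell2 difference ran from -0.63 to -0.48. Among 10 PRDM relatives of Mecom and Prdm16 it was Prdm10 (-0.29 ± 0.11, 0.236), and in the Myc network of 11 genes Mxd4 (0.17 ± 0.10, 0.544). The median was -0.07 for the PRDM and Sox lists, 0.09 for the TALE list, 0.04 for the Myc list and 0.03 for the MLL list.

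The genes whose log2 values tracked each member best over the 8 arrays were also listed, as a description. For Hlf they were Lamtor4 (r = 0.975) and Ppm1h (0.974), and for Mecom the endothelial sialomucin Emcn (0.978) and Tmem273 (0.968). Meis1 was tracked by the chromatin remodelling ATPase Smarca2 (0.997) and the Tie2 ligand Angpt1 (0.996), and Erg by Cmtm7 and the chromatin organiser Satb1 (0.996 each). Emcn differed between the cell types by 1.24 ± 0.13, Angpt1 by 1.96 ± 0.39 and Satb1 by 2.14 ± 0.36 (SE, limma adjusted p = 0.00837, 0.0492 and 0.0362). Mycn was tracked by Lbh and Spata6 (0.993 each), Sox4 by Tmem59 (0.984) and Lin7c (0.980), Prdm16 by Dcaf12l2 (0.992) and Hmx3 (0.974), and Mllt3 by the cap-binding factor Eif4e (0.988) and Hspbp1 (0.983). With 8 arrays and 19938 genes some high values are found for any pattern, and the arrays share the contrast of the cell types and the WT MEP 1 array.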

How the data were processed

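RNA of KLS and MEP cells was measured on 8 Affymetrix arrays. The deposited values are log2 signals from 1.71 to 14.0, the scale being read from the values. They were made with Affymetrix Expression Console, per the submitters' processing notes; the sources used here give neither its version nor the background correction, normalization or summarization. The array medians ran from 6.34 to 6.45 and spanned 0.106, above the 0.1 allowed, so the arrays were quantile normalized. Of 35556 probe sets, 21789 had 1 gene symbol in the platform annotation, 1621 had several and 12146 had none listed; those with 1 were used. Symbols were checked through Entrez identifiers in a RefSeq table of GRCm38.p6 (21698 matched, 0 changed). The brightest probe set by mean over the arrays stood for each of 19938 genes.

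The tests used limma 3.58.1 under R 4.3.3, with lmFit, contrasts.fit and eBayes. The model held 1 mean per group and all 8 arrays. Each gene had 1 spread shared by the groups, so uneven replicates in a group widen its intervals in every comparison. Tests were two-sided, with Benjamini-Hochberg adjustment over all genes and a threshold of 0.05. The residual degrees of freedom were 4 and the prior 4.82. The fit was tested on simulated data with independent noise and the same spread in every group. That setting does not cover uneven replicates such as those of WT MEP cells. Groups and replicate numbers came from the sample titles. The preparations are called independent in the labels, and 2 arrays per group limit the precision. All 8 genes are described. From each list the text names up to 3 genes that passed, by size of change, or else the gene with the smallest p, and for each of the 8 genes the 2 others with the highest correlation, without clone and model transcripts. Lists may be left out, and genes named outside the rule are marked as chosen after their values were seen. The genes and lists were chosen with earlier results of these data known. Alternatives were other scalings, a filter on dim genes, the mean over probe sets, an intensity trend, the replicate number as a block, the arrays of 1 cell type alone and leaving out each array.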

Additional observations from a re-analysis of the deposited data

Results flagged for a closer look

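Erg on WT MEP 1 stood apart from the other 3 MEP arrays. Its log2 signal there was 8.14, against 6.83, 6.92 and 7.01, a gap that makes up most of the range of the 4 arrays. Of 16 sets of 4 arrays examined (8 genes in 2 cell types) it was the 1 flagged by Dixon's test at the 95% level, and chance flags about 1 in 20 such sets. The MEP arrays hold both genotypes.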

How the results depend on the processing

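Of the 4 genes called between KLS and MEP cells over both genotypes, 2 (Hlf and Mecom) were called with median centring, and 1 to 4 with an array left out. Within WT cells 1 gene was called, with 1 to 3 when an array was left out. Within TG cells 1 was called, 2 with the replicate block and 0 to 3 with an array left out. By genotype in MEP cells 0 were called, and 0 to 1 with an array left out. Where a group was left with 1 array, that array was assumed to vary like the others. Without WT MEP 1 or WT MEP 2 the gap between these arrays also drops out of the spread, so calls gained there are not read as support. The remaining settings kept these counts within 1.5 times, and the counts for genotype in KLS cells and for the interaction were 0 in each setting tried. Number-matched arrays did not deviate together in every pair of groups (correlations of deviations from -0.28 to 0.38), so the shared numbers are not taken as pairs. A block with the TG MEP numbers crossed was chosen after seeing the data. With it, 5, 2 and 3 genes were called over both genotypes, within WT and within TG cells. Over both genotypes it also lowered the limma adjusted p of every list gene followed under other settings. Examples are Etv6 (from 0.0458 to 0.00053) and Nkg7 (from 0.0208 to 3.4e-05). The share of all genes called is not given for these settings, so the counts are not read as particular to the genes named here.

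Signs turned for some differences that passed no threshold on all arrays. With median centring, Sox4 in WT cells (KLS minus MEP) was at -0.048, the genotype difference of Mllt3 in KLS cells at 0.070 (0.039 as deposited) and the Hlf interaction at 0.019. The dimmer Mecom probe set gave genotype differences of 0.071 in KLS and -0.14 in MEP cells and an interaction of 0.21. With an array left out, the WT difference of KLS minus MEP ran from -0.094 to 0.85 for Mycn and from -0.25 to 0.28 for Sox4. The genotype difference in KLS cells ran from -0.12 to 0.38 for Meis1, from -0.38 to 0.11 for Mycn, from -0.10 to 0.097 for Prdm16, from -0.16 to 0.55 for Sox4 and from -0.17 to 0.073 for Mllt3. In MEP cells it ran from -0.20 to 0.023 for Hlf, from -1.56 to 0.41 for Meis1, from -0.044 to 0.084 for Prdm16 and from -0.50 to 0.037 for Sox4. The interaction ran from -0.27 to 1.695 for Meis1, -0.12 to 0.82 for Mycn, -0.12 to 0.077 for Prdm16 and -0.085 to 1.04 for Erg. The deposited table gives no detection calls, so how far Prdm16 and the dimmer Mecom probe set lie above background was not tested.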
